A study of Mus musculus with 6 samples.

Results

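The genes of the EGF receptor (ErbB) family were followed in RNA from mouse intestinal tumor organoids with 3 different Trp53 genotypes. The members were taken by symbol from the deposited expression table and are the receptors Egfr, Erbb2 and Erbb3, the ligands Areg, Btc, Tgfa, Hbegf, Egf and Ereg, and the feedback inhibitor Errfi1, 10 of the 36172 genes listed. Organoids are 3-dimensional cultures of tumor epithelial cells, here prepared from small intestinal tumors of C57BL/6 mice aged 15 to 20 weeks. All mice carried the truncating Apc Δ716 allele, and the tumors had lost the remaining Apc allele. The +/+ organoids kept wild-type Trp53. The flox/flox organoids carried a silenced R270H allele on both copies, which acts as a null allele because its stop cassette was not removed. In the R270H/R270H organoids the cassette had been removed by a tamoxifen-activated Cre under the villin promoter, an epithelial promoter of the gut, so that both copies expressed the missense protein. The flox/flox mice carried the same Cre transgene, and the paper gives tamoxifen treatment as the step that turns them into R270H/R270H. Whether the +/+ mice carried the transgene or were given tamoxifen is not given in the sources used here. There were 2 organoid samples per genotype, which gave 6 libraries. The sources used here do not say whether samples of a genotype came from separate mice, tumors or cultures, so p-values measure only the spread between these samples, which may be technical.

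EGF receptor ligands are made as membrane proteins, are cut off by ADAM proteases and bind Egfr, which pairs with itself or with Erbb2 or Erbb3. Erbb2 has no known ligand of its own, and Erbb3 has little kinase activity and binds the regulatory subunit of PI3K when phosphorylated. The active pairs signal through Ras and ERK and through PI3K and Akt, and Errfi1 (Mig6), a gene induced by this signalling, blocks the receptor kinase. In the normal small intestine, Paneth cells and the stroma supply EGF family ligands to the stem cells of the crypt. Whether EGF was added to the organoid medium is not given in the sources used here.

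The deposited values are rpkm, read numbers normalised to transcript length and library size, and none is below 1, so a gene listed at 1 was at or under that floor. A gene entered the tests when it reached 4 rpkm in at least 1 library, which kept 10042 genes and 8 of the 10 members. Egf and Ereg stood at the floor in all 6 libraries and were not tested. Trp53 itself read 75.9 and 74.3 rpkm in the +/+ libraries, 1.73 and 2.48 in flox/flox and 72.8 and 82.7 in R270H/R270H. The low flox/flox values go with the null label, whereas the level cannot tell the missense genotype from +/+. The epithelial markers Epcam, Cdh1, Vil1, Krt8, Krt18 and Cdx2 were present in every library, with sums of 1921 to 3322 rpkm, whereas the immune markers Ptprc and Cd3e and the stromal markers Col1a2 and Col3a1 were at the floor in all 6. Other markers of these lists were not. The macrophage marker Cd68 reached 11.1 rpkm and the stromal marker Acta2 11.5 in flox/flox 2, and the endothelial marker Cdh5 reached 9.35 in +/+ 2. The table holds no read counts, so the depth of the libraries is not known. Library 1 of flox/flox stood apart from the rest. The flox/flox libraries correlated at 0.932 over the tested genes, against 0.996 for the +/+ pair and 0.993 for the R270H/R270H pair. In flox/flox 1 the 25% of tested genes with the longest transcripts differed from the median of the 6 libraries by -0.45 on the log2 scale (median over these genes), and the 25% with the shortest by 0.36. The other 5 libraries stayed between -0.01 and 0.10 for the longest and between -0.10 and 0.02 for the shortest transcripts. Across genes, transcript length and this deviation had a Spearman correlation of -0.53 in flox/flox 1. It was 0.34 and 0.23 in R270H/R270H 1 and 2, the other way, and -0.07 to 0.08 in flox/flox 2 and the +/+ libraries. The differences of the members that involve flox/flox are given with and without it.

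Areg, the gene of amphiregulin, differed the most of the family in each of the 3 comparisons of all libraries. However, Errfi1, Egfr or Erbb3 differed more in comparisons with flox/flox when a single flox/flox library was left out. Areg was read at 57.3 and 60.1 rpkm in the +/+ libraries, at 29.2 and 30.9 in flox/flox and at 9.33 and 10.4 in R270H/R270H. The 3 genotypes formed separate steps without any overlap, and both R270H/R270H libraries lay far below the rest. The longest annotated Areg transcript has 1215 bases, and 7.47% of the tested genes have shorter ones. The part of transcript length in the Areg levels was not tested. The mean of 58.7±1.93 rpkm (mean±s.d., n=2) in +/+ was 5.95-fold that of R270H/R270H (9.86±0.753) and 1.95-fold that of flox/flox (30.1±1.16). Differences were tested with limma on log2(rpkm+1) over all 10042 genes, with p-values adjusted by the Benjamini-Hochberg method. On this scale Areg fell by 2.46 in R270H/R270H against +/+ (s.e. 0.10, adjusted p=0.00303). It fell by 0.94 in flox/flox against +/+ (s.e. 0.10, adjusted p=0.0132), and fell by 1.52 in R270H/R270H against flox/flox (s.e. 0.10, adjusted p=0.00247). These comparisons share libraries and are not independent of each other. When single libraries were left out the differences stayed between -2.53 and -2.39, between -0.98 and -0.90 and between -1.59 and -1.45, but some calls were lost. For R270H/R270H against +/+ the adjusted p was 0.0681 and 0.0706 without +/+ replicate 1 or 2, 0.0508 and 0.0431 without R270H/R270H replicate 1 or 2, and 0.000149 and 0.000146 without flox/flox replicate 1 or 2. For flox/flox against +/+ it lay between 0.0817 and 0.204 without any one of the +/+ or R270H/R270H libraries and was 0.00316 without flox/flox replicate 1 and 0.000844 without replicate 2. It was 0.0770 in a fit of only these 2 genotypes and 0.0738 with a spread for each genotype. Against flox/flox the fall in R270H/R270H kept an adjusted p under 0.05 whichever library was left out, with values from 0.000339 to 0.0423.

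**Figure D1:**
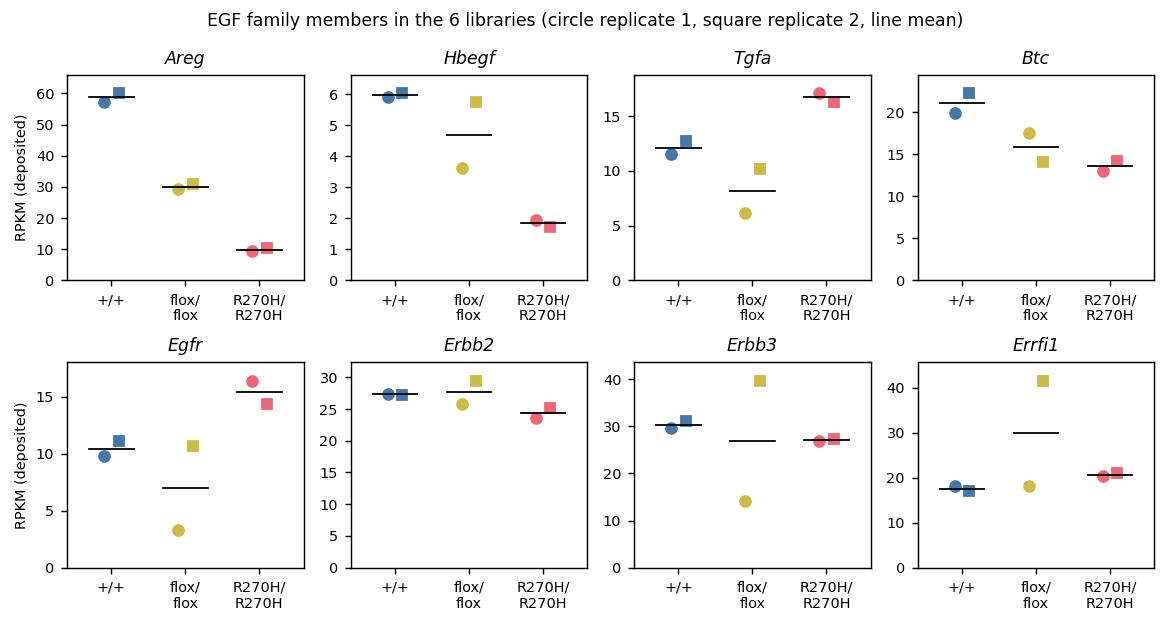
Deposited rpkm (linear axes from 0) of the 8 members that passed the filter in the 6 libraries, with circles for replicate 1, squares for replicate 2 and a line at the mean of each Trp53 genotype. Areg steps down from 57.3 and 60.1 rpkm in +/+ to 9.33 and 10.4 in R270H/R270H, while the flox/flox libraries lie far apart in Egfr, Erbb3 and Errfi1.

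Areg lies on chromosome 5 at chr5:91139599-91148432 (GRCm38, plus strand), in a cluster with other ligand genes. Upstream sequences of the members were taken from RefSeq (GRCm38.p6), which held 9 windows of 250 bases for 7 of the 10 members, and were searched on both strands for the cAMP response element (TGACGTCA), the TATA box (TATAAA), the AP-1 element (TGANTCA), the TCF/LEF element (CTTTGAT) and the p53 half-site. The 4 windows printed here end at the base before an annotated RefSeq transcript start and are shown because Areg fell, Tgfa was higher in R270H/R270H than in flox/flox, Btc is the neighbour of Areg, and Errfi1 holds the same pair of motifs as Areg. Capitals mark the cAMP response element and the TATA box.
Areg chr5:91139349-91139598 plus strand: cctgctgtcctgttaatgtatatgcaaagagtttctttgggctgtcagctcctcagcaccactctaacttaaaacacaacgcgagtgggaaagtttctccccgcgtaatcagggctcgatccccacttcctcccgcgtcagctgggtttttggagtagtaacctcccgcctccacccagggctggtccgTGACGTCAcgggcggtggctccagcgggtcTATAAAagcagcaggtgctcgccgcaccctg
Errfi1 chr4:150854820-150855069 plus strand: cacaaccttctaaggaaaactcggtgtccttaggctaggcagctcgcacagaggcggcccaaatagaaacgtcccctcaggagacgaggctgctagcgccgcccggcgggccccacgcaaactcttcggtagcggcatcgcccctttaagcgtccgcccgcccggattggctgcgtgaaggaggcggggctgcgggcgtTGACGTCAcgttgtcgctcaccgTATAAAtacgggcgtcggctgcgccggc
Btc chr5:91402995-91403244 minus strand: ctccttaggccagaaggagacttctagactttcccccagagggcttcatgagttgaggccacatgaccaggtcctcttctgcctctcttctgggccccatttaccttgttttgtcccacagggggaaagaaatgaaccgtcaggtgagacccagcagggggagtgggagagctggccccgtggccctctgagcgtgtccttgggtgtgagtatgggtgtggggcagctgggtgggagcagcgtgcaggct
Tgfa chr6:86194972-86195221 plus strand: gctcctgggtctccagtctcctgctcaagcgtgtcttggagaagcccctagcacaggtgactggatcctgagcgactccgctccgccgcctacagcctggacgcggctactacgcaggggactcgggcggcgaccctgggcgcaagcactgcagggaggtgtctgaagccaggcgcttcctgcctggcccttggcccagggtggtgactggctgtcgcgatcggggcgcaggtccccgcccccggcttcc
In the Areg window the cAMP response element spans bases -61 to -54, counted from the transcript start, and the TATA box bases -31 to -26. The Errfi1 window holds them at -51 to -44 and -28 to -23. Of all 32851 windows of this length, 1.55% held the cAMP response element, 12.4% the TATA box and 0.119% both. The Btc and Tgfa windows held none of the 5 motifs, and neither did those of Egfr and Erbb2. The Egf window that starts at chr3:129755323 held a p53 half-site at bases -83 to -74. The other Egf window and the other Errfi1 window held none of the motifs. AP-1 elements were found in 6.75% of all windows, TCF/LEF elements in 3.21% and p53 half-sites in 7.13%, and none of these was in the Areg or the Errfi1 window shown. A match is a run of letters and does not show that a factor binds.

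The other ligand that fell was Hbegf, the gene of heparin-binding EGF-like growth factor, on chromosome 18. It was read at 5.90 and 6.03 rpkm in +/+, at 3.63 and 5.74 in flox/flox and at 1.96 and 1.72 in R270H/R270H. Both R270H/R270H libraries were below the other 4 and not far above the floor. The +/+ mean was 3.24-fold that of R270H/R270H, a fall of 1.30 on the log2(rpkm+1) scale (s.e. 0.21, adjusted p=0.0238), and the difference from flox/flox was -0.98 (s.e. 0.21, adjusted p=0.0299). The difference between flox/flox and +/+ was -0.32 (95% confidence interval -0.85 to 0.21, adjusted p=0.318), and it was -0.046 without flox/flox replicate 1 (adjusted p=0.702) and -0.59 without replicate 2 (adjusted p=0.00379). The R270H/R270H differences from +/+ and flox/flox were -1.30 and -1.25 without flox/flox replicate 1 (adjusted p=0.000451 and 0.000964) and -1.30 and -0.71 without replicate 2 (adjusted p=0.000444 and 0.00190). Without any one of the +/+ or R270H/R270H libraries Hbegf was no longer called in either comparison, with adjusted p-values of 0.171 to 0.216 against +/+ and 0.0989 to 0.179 against flox/flox.

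Tgfa, which encodes transforming growth factor alpha, ran the other way. It was read at 11.5 and 12.7 rpkm in +/+, at 6.15 and 10.2 in flox/flox and at 17.1 and 16.3 in R270H/R270H. The R270H/R270H pair was the highest and the flox/flox pair the lowest, without overlap. The longest annotated Tgfa transcript has 4527 bases, and 71.8% of the tested genes have shorter ones. The part of transcript length in the Tgfa levels was not tested. The R270H/R270H mean was 2.05-fold that of flox/flox, a difference of 0.99 on the log2(rpkm+1) scale (s.e. 0.23, adjusted p=0.0349), which was 0.66 without flox/flox replicate 1 (adjusted p=0.00489) and 1.31 without replicate 2 (adjusted p=0.000461). That call was lost without any one of the +/+ or R270H/R270H libraries (adjusted p from 0.107 to 0.228). Against +/+ the difference of R270H/R270H was 0.43 (95% confidence interval -0.14 to 1.01, adjusted p=0.255), and that of flox/flox was -0.55 (-1.12 to 0.02, adjusted p=0.153). The first stayed at 0.43 and was called without flox/flox replicate 1 or 2 (adjusted p=0.00754 and 0.00784). The second was -0.23 without flox/flox replicate 1 (adjusted p=0.0998) and -0.88 without replicate 2 (adjusted p=0.00128).

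Btc, the betacellulin gene, lies 263.4 kb from Areg. It was read at 19.9 and 22.3 rpkm in +/+, at 17.6 and 14.1 in flox/flox and at 13.1 and 14.2 in R270H/R270H, so that the +/+ pair was highest and the other genotypes overlapped. Its difference from +/+ was -0.59 in R270H/R270H (95% confidence interval -0.95 to -0.23, adjusted p=0.0556) and -0.40 in flox/flox (-0.76 to -0.04, adjusted p=0.120), and R270H/R270H differed from flox/flox by -0.20 (-0.56 to 0.16, adjusted p=0.326). In the same order these were -0.59, -0.54 and -0.05 without flox/flox replicate 1 (adjusted p=0.00425, 0.0145 and 0.698), and -0.59, -0.25 and -0.34 without replicate 2 (adjusted p=0.00423, 0.0762 and 0.0283). Genes of chromosome 5 had a median shift of 0.25 (log2) in flox/flox 1 and of -0.09 to -0.03 in the other libraries. With values centred on each chromosome, Btc was called lower in both comparisons, by -0.65 and -0.56 (adjusted p=0.0236 and 0.0354).

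The ligands Egf and Ereg (epiregulin) were listed at 1 rpkm in every library, and so were the remaining members of the extended family, Epgn, Nrg1, Nrg2, Nrg3, Nrg4 and the receptor gene Erbb4. The other 4 ligand genes were measured above the floor. Their rpkm, which is a level per length, summed to 94.7 and 101 in +/+, 56.6 and 60.9 in flox/flox and 41.5 and 42.7 in R270H/R270H. Areg made up 60.6 and 59.4% of this sum in +/+ and 51.7 and 50.7% in flox/flox, but 22.5 and 24.4% in R270H/R270H. Tgfa made up 12.2 and 12.6%, 10.9 and 16.7%, and 41.3 and 38.3%, in the same order. Thus Areg was the most abundant ligand transcript in the +/+ and flox/flox organoids and Tgfa in the R270H/R270H organoids.

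**Figure D2:**
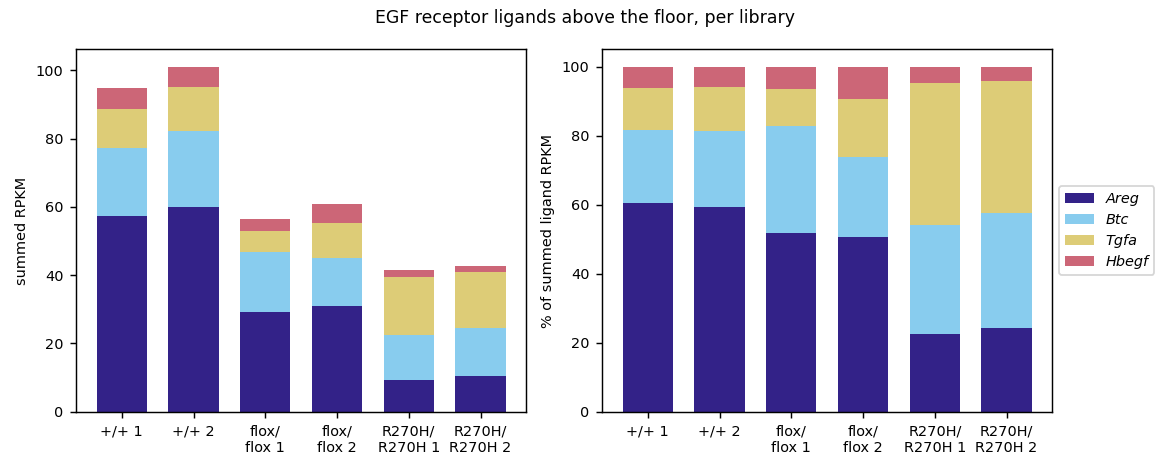
Summed rpkm of the 4 ligand genes above the floor (left, stacked bars) and the share of each in that sum in percent (right), for each of the 6 libraries. Areg is the largest share in the +/+ and flox/flox libraries, at 50.7 to 60.6%, and Tgfa in the R270H/R270H libraries, at 41.3 and 38.3%.

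The receptors differed less between +/+ and R270H/R270H than Areg and Hbegf did, and limma called none of them in any comparison. Egfr (chr11:16752203-16918158) was read at 9.80 and 11.1 rpkm in +/+, at 3.34 and 10.7 in flox/flox and at 16.4 and 14.3 in R270H/R270H. The R270H/R270H pair was above the other 4 libraries, whereas flox/flox 1 was far below all others and flox/flox 2 fell within the +/+ range. The difference from +/+ was 0.52 in R270H/R270H (95% confidence interval -0.65 to 1.68, adjusted p=0.494) and -0.68 in flox/flox (-1.85 to 0.48, adjusted p=0.325), and R270H/R270H differed from flox/flox by 1.20 (0.04 to 2.36, adjusted p=0.110). These wide intervals come from a spread shared by the 3 genotypes. The R270H/R270H differences without flox/flox replicate 1 were 0.52 and 0.49, and both were called (adjusted p=0.0107 and 0.0249), while flox/flox differed from +/+ by 0.03. They were 0.52 and 1.91 without flox/flox replicate 2 (adjusted p=0.0112 and 0.000397), and flox/flox then differed from +/+ by -1.40 (adjusted p=0.000836). The longest annotated Egfr transcript, of 10208 bases, is longer than those of 98% of the tested genes. The part of transcript length in the low Egfr value of flox/flox 1 and in the higher values of R270H/R270H was not tested.

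Erbb3 (chr10:128567523-128589652), with a longest transcript of 6016 bases, was read at 29.6 and 31.2 rpkm in +/+, 14.1 and 39.7 in flox/flox and 26.8 and 27.2 in R270H/R270H. The +/+ and R270H/R270H pairs were tight, and the flox/flox libraries lay on both sides of them. Its difference in R270H/R270H was -0.16 against +/+ (95% confidence interval -1.31 to 0.98, adjusted p=0.841) and 0.18 against flox/flox (-0.97 to 1.32, adjusted p=0.783), and that of flox/flox against +/+ was -0.34 (-1.49 to 0.81, adjusted p=0.611). The last became 0.38 without flox/flox replicate 1 (adjusted p=0.0123) and -1.06 without replicate 2 (adjusted p=0.000446), so its direction rests on the library chosen. Against flox/flox, R270H/R270H differed by -0.54 (adjusted p=0.00355) and 0.89 (adjusted p=0.000526) in the same fits. Erbb2 (chr11:98412470-98437716) was the steadiest of the 8 members, with 27.4 and 27.3 rpkm in +/+, 25.9 and 29.5 in flox/flox and 23.5 and 25.1 in R270H/R270H. The R270H/R270H pair was the lowest, with a difference of -0.16 from +/+ (95% confidence interval -0.44 to 0.11, adjusted p=0.359) and -0.18 from flox/flox (-0.45 to 0.10, adjusted p=0.261), and flox/flox overlapped +/+ (0.01, -0.26 to 0.29, adjusted p=0.943). The last 2 were -0.27 and 0.10 without flox/flox replicate 1 (adjusted p=0.0280 and 0.275) and -0.09 and -0.08 without replicate 2 (adjusted p=0.312 and 0.355). The Erbb2 exons overlap those of Mien1 on the other strand. The libraries were stranded, but whether the counting used the strand is not given in the sources used here. The 3 receptors summed to 66.8 and 69.5 rpkm in +/+, 43.3 and 79.9 in flox/flox and 66.8 and 66.7 in R270H/R270H, and the share of Egfr in the sum was 14.7 and 16.0%, 7.71 and 13.3%, and 24.6 and 21.5%.

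Errfi1 (chr4:150853919-150868892) was read at 18.1 and 17.1 rpkm in +/+, 18.1 and 41.6 in flox/flox and 20.4 and 21.0 in R270H/R270H. Apart from flox/flox 2, which was above every other library, the values lay close together. Its difference was 0.22 in R270H/R270H against +/+ (95% confidence interval -0.71 to 1.16, adjusted p=0.724), 0.62 in flox/flox against +/+ (-0.32 to 1.56, adjusted p=0.279) and -0.40 between R270H/R270H and flox/flox (-1.33 to 0.54, adjusted p=0.436). The second was 0.04 without flox/flox replicate 2 (adjusted p=0.608) and 1.20 without replicate 1 (adjusted p=0.00109), and the last was 0.18 (adjusted p=0.0727) and -0.98 (adjusted p=0.000962). Flox/flox 2 was also the library with the stromal and smooth muscle marker Acta2 at 11.5 rpkm, against 1 to 1.59 in the others, and its 6 stromal markers summed to 18.2 rpkm against 6 to 6.59. The part of such cells in the Errfi1 value was not tested.

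**Figure D3:**
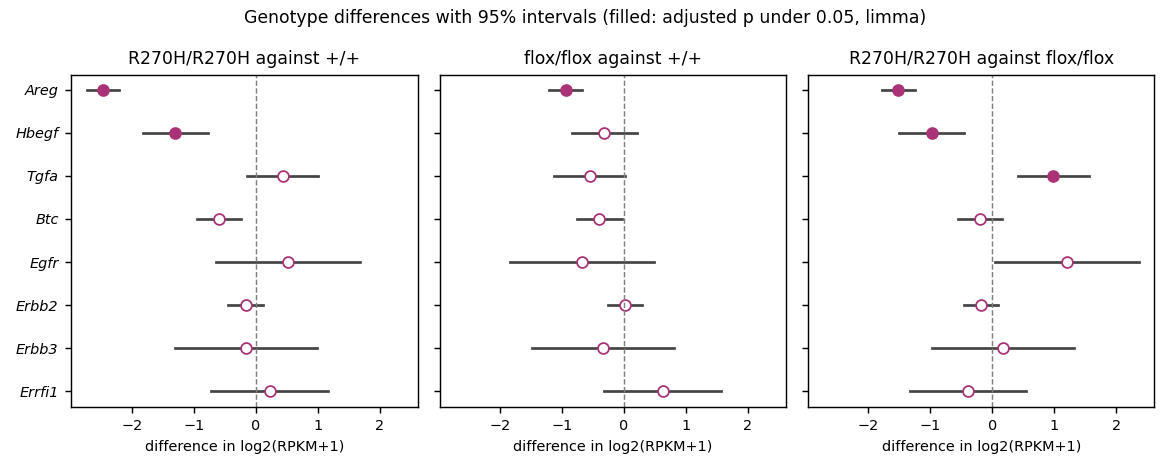
Differences between genotypes in log2(rpkm+1) from limma (points) with 95% confidence intervals (lines) for the 8 tested members, filled where the adjusted p was under 0.05. Areg lies at -2.46, -0.94 and -1.52 in the 3 panels with short intervals, whereas Egfr, Erbb3 and Errfi1 have the widest intervals.

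By level per length, the order in +/+ was Areg, Erbb3, Erbb2, Btc, Errfi1, Tgfa, Egfr and Hbegf, and no neighbours in it overlapped between libraries. In R270H/R270H the order was Erbb3, Erbb2, Errfi1, Tgfa, Egfr, Btc, Areg and Hbegf, where only the neighbours Tgfa and Egfr overlapped. In flox/flox the order of the means began with Areg, Errfi1, Erbb2, Erbb3 and Btc, each overlapping the next, followed by Tgfa, Egfr and Hbegf, which also overlapped in turn. Areg thus moved from the first place in +/+ to the seventh in R270H/R270H.

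Of the 8 tested members, limma called 2 lower and 0 higher in R270H/R270H than in +/+, where it called 6.36% of all tested genes lower and 5.86% higher. In flox/flox against +/+ it called 1 lower and 0 higher, with 6.90% and 4.38% of all genes. Between R270H/R270H and flox/flox it called 2 lower and 1 higher, with 11.0% and 13.6% of all genes. The median difference of the 8 members was -0.16, -0.37 and -0.19 in these comparisons, and that of all tested genes 0.03, -0.02 and 0.03. Both R270H/R270H libraries lay below the other 4 in 3 of the 8 members (Areg, Hbegf and Erbb2), as in 18.7% of all genes, and above them in 2 (Tgfa and Egfr), as in 26.5% of all genes. Areg was the only member called in all 3 comparisons. The number of members called changed when libraries were left out. The counts were 6, 4 and 7 in the same order without flox/flox replicate 1, where 57.1 and 40.4% of all tested genes were called in either direction in the first comparison and the second. The 7 in the last were 2 higher and 5 lower, where 29.1% of all tested genes were called higher and 23.9% lower. They were 6, 5 and 6 without flox/flox replicate 2, where 57.1, 68.5 and 72.3% of all tested genes were called. They were 0, 0 and 1 without +/+ replicate 1, +/+ replicate 2 or R270H/R270H replicate 1, and 1, 0 and 1 without R270H/R270H replicate 2. In these 4 fits at most 1.13, 0.368 and 3.74% of all tested genes were called. A genotype left with 1 library was assumed to vary like the others. In a fit of only +/+ and R270H/R270H, Areg, Btc and Hbegf were called lower and Egfr, Tgfa and Errfi1 higher, and 57.0% of all tested genes were called in either direction. The members' counts thus rose and fell with those over all genes.

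Within 1000 kb of the start of Areg the table lists 34 genes, Areg included, of which 14 were at the floor in all libraries and 17 were tested. The genes named here were chosen after their values were seen. Areg was the only one of the 17 called lower in R270H/R270H than in +/+, where 6.36% of all tested genes were called lower. The chemokine gene Cxcl5, at -380.2 kb, was higher by 1.99 on the log2(rpkm+1) scale (adjusted p=0.0176), and Afp, Alb and Afm, a group of albumin family genes, were higher by 2.18, 1.17 and 1.01 (adjusted p=0.00367, 0.0482 and 0.0189). Cxcl5 and Afp were at the floor of 1 rpkm in both +/+ libraries. They passed the filter only through R270H/R270H, where they were read at 7.14 and 6.80 rpkm and at 8.42 and 7.73 rpkm, so their calls are a description only. In flox/flox against +/+, Alb and Afm were called lower, with differences of -1.35 and -1.83 (adjusted p=0.0370 and 0.00719). Btc was not called in either comparison.

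**Figure D4:**
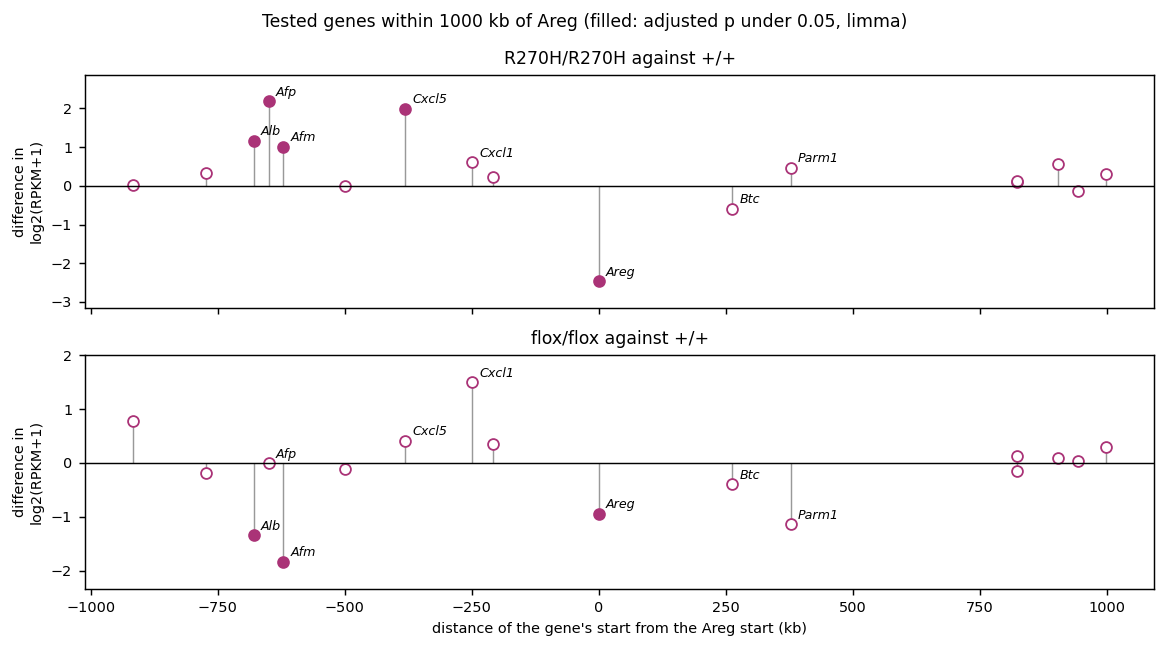
Differences in log2(rpkm+1) of the 17 tested genes within 1000 kb of the Areg start, by distance in kb, in R270H/R270H (top) and flox/flox (bottom) against +/+, filled where the adjusted p was under 0.05. In the top panel Areg at -2.46 is the only filled point below 0.

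Over the 6 libraries and all tested genes, those whose log2(rpkm+1) followed Areg most closely were Acaa2, Obfc1 and Reep6 (Pearson r=0.998 for each, n=6 libraries). Acaa2, an enzyme of fatty acid oxidation, fell from 66.9 and 68.9 rpkm in +/+ to 57.0 and 58.2 in flox/flox and 41.5 and 43.8 in R270H/R270H. For Egfr they were Jmjd1c, a gene listed as Prl14l, and Baz2a (r=0.999 for each), which were all lowest in flox/flox 1. For Errfi1 they were Zhx2 (r=0.998), Acta2 (r=0.996) and Sf3a1 (r=0.994), which were highest in flox/flox 2. Correlations over so few libraries, taken as the highest of all genes, are a description and were not tested.

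Paneth cells are a known source of EGF family ligands, and their marker transcripts also differed between the genotypes. The sum of Lyz1, Defa24, Defa17, Mmp7 and Ang4 was 1338 to 1690 rpkm in +/+, 561 to 573 in flox/flox and 386 to 421 in R270H/R270H. All 5 were called lower in R270H/R270H than in +/+, and 4 of 5 in flox/flox. Over all tested genes 6.36 and 6.90% were called lower in these comparisons. Between R270H/R270H and flox/flox, where Areg fell by 1.52, Mmp7 was lower and Defa17 higher and the other 3 were not called. In RNA of whole organoids, fewer cells of a type and less RNA per cell cannot be told apart, and the part of Paneth cells in the Areg levels was not tested. Of the other lists, the macrophage marker Cd68 was read at 10.2 and 9.87 rpkm in +/+, 2.06 and 11.1 in flox/flox and 2.22 and 2.41 in R270H/R270H, while Ptprc and Cd3e were at the floor. The endothelial marker Cdh5 was read at 8.88 and 9.35 rpkm, 1 and 3.30, and 1.04 and 1, while Pecam1 and Kdr were at the floor. Their part in the member values was not tested either.

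The genes around the receptors were read from 6 lists of 75 genes in all, of which 63 were tested. In R270H/R270H against +/+, limma called 2 of them higher and 5 lower, and in flox/flox against +/+ 0 in either direction. Between R270H/R270H and flox/flox it called 10 higher and 11 lower. Over all tested genes 12.2, 11.3 and 24.6% were called in either direction. In the same order, 26, 14 and 33 of the 63 had an unadjusted p under 0.05 in limma. The share of all tested genes at that threshold is not given here. The median differences of the 63 list genes were -0.01, -0.11 and 0.07. Without flox/flox replicate 1 or 2 more genes of the lists were called in each comparison, and more of all tested genes were called too. Leaving out any one of the +/+ or R270H/R270H libraries, no gene of the lists was called in the first comparison or the second, and few in the last. In these fits fewer of all tested genes were called too. The sizes of the differences of the list genes are given from all 6 libraries only. Long transcripts read low in flox/flox 1, and the part of transcript length in these differences was not tested.

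The genes that respond to ERK signalling were the list with the most calls. Of 16 genes, 14 were tested, and 4 were lower and 0 higher in R270H/R270H than in +/+, with a median difference of -0.89, against 0.03 for all tested genes. Over all tested genes 6.36% were called lower and 5.86% higher in this comparison. Myc, the proliferation factor, fell by 1.18 (adjusted p=0.00548), and the Eph receptor gene Epha2 fell by 1.17 (adjusted p=0.0167). The urokinase receptor gene Plaur fell by 0.95 (adjusted p=0.0178), and Ccnd1, which encodes cyclin D1, fell by 0.89 (adjusted p=0.0349). Etv4, Etv5 and Phlda1 went the other way, by 0.35, 0.30 and 0.15, and were not called (adjusted p from 0.0967 to 0.832). In a fit of only +/+ and R270H/R270H, Etv4 and Etv5 were called higher, and more genes of the list were called lower than in the main fit. That fit called 57.0% of all tested genes in either direction. Myc was read at 97.3 and 104 rpkm in +/+, 80.2 and 77.7 in flox/flox and 41.4 and 46.5 in R270H/R270H, and like Areg it had no overlap between any genotypes. Plaur was read at 15.6 and 15.9 rpkm, at 22.3 and 22.6, and at 6.74 and 8.69, so its highest level was in flox/flox. Between R270H/R270H and flox/flox the early response genes Junb, Ier3, Ier2 and Jun were called lower, with differences of -2.53, -1.90, -1.71 and -1.03 (adjusted p from 0.0112 to 0.0334), as were Plaur, Epha2 and Myc with -1.44, -0.90 and -0.83 (adjusted p from 0.00514 to 0.0217). Etv4, a transcription factor of the Ets family, rose by 0.51 (adjusted p=0.0297). These were 7 lower and 1 higher of the 14 tested, where 11.0% of all tested genes were called lower and 13.6% higher. Junb reached 32.3 rpkm in flox/flox 2, against 16.9 in flox/flox 1, no more than 9.54 in the +/+ libraries and 2.50 and 4.10 in R270H/R270H. Myc and Ccnd1 are also known targets of Wnt signalling, which loss of Apc activates, and the early response genes also rise with cell stress. Of its other genes, Dusp6, a phosphatase that ERK signalling induces, was read at 31.1 and 33.8 rpkm in +/+, 16.2 and 28.4 in flox/flox and 30.0 and 28.8 in R270H/R270H and was not called.

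**Figure D5:**
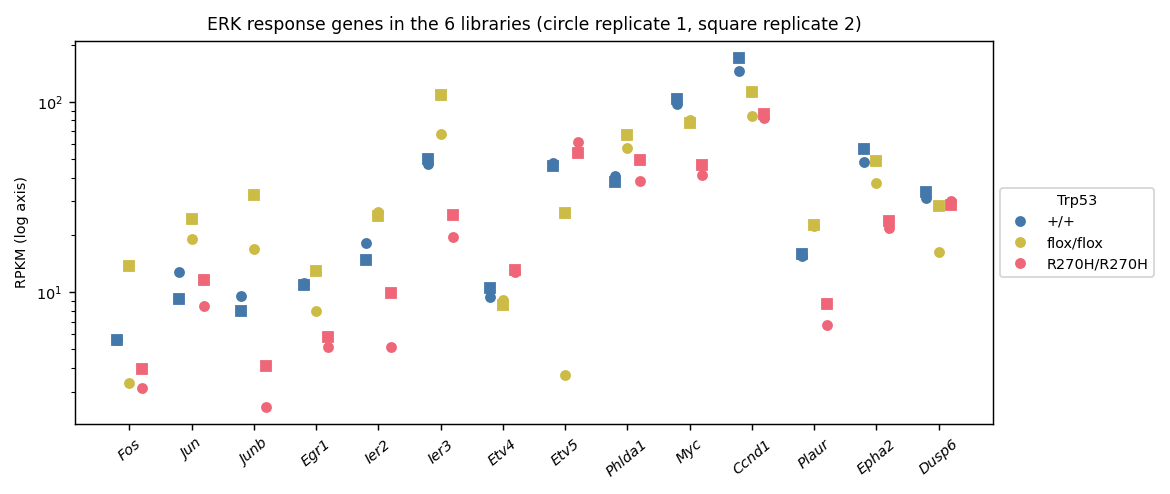
Rpkm on a log axis of the 14 tested genes known to respond to ERK signalling, by Trp53 genotype, with circles for replicate 1 and squares for replicate 2. Myc, Plaur, Epha2 and Ier3 are lowest in both R270H/R270H libraries, whereas Etv4 and Etv5 are highest there. Junb is highest in flox/flox 2, at 32.3 rpkm.

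In the Ras and ERK cascade, 17 of 18 genes were tested. Against +/+, 1 was called higher and 1 lower in R270H/R270H, where 5.86% of all tested genes were called higher and 6.36% lower. The median difference of the 17 was 0.19 in this comparison, and that of all tested genes 0.03. Mapk3, which encodes ERK1, fell by 0.75 in R270H/R270H against +/+ (adjusted p=0.0197), from 120 and 134 rpkm to 76.9 and 73.7. Against flox/flox, Mapk3 and Map2k2, the kinase above it, differed by -0.56 and -0.90, whereas Nf1, a brake on Ras, and Sos2, which loads Ras with GTP, were higher by 1.08 and 0.68 (adjusted p from 0.0193 to 0.0406). These were 2 higher and 2 lower of the 17 tested, where 13.6% of all tested genes were called higher and 11.0% lower. In flox/flox 1 and 2, Nf1 was read at 2.38 and 4.75 rpkm and Sos2 at 5.59 and 6.47. Map2k2 was read there at 44.7 and 34.0 rpkm and Mapk3 at 107 and 117. The part of transcript length in these differences was not tested. Of the 12 PI3K and Akt genes, all tested, Pik3r3, a regulatory subunit of PI3K, was higher in R270H/R270H than in both other genotypes. It was read at 14.2 and 14.0 rpkm in +/+, 11.5 and 12.0 in flox/flox and 34.3 and 30.7 in R270H/R270H, differences of 1.15 against +/+ (s.e. 0.10, adjusted p=0.00548) and 1.39 against flox/flox (s.e. 0.10, adjusted p=0.00283), with no overlap between R270H/R270H and the other libraries. Pik3ca, a catalytic subunit of PI3K, and Tsc2 were higher than in flox/flox by 0.56 and 0.50, and Akt1 differed by -0.49 (adjusted p from 0.0414 to 0.0489). In all, 4 of the 12 were called higher and 1 lower than in flox/flox, where 13.6% of all tested genes were called higher and 11.0% lower. The call of Pik3ca was lost under every alternative but those without flox/flox replicate 1 or 2. Those of Akt1 and Tsc2 were lost with the replicate number as a block, with weights for each genotype and in a fit of only these 2 genotypes. They were also lost without any one of the +/+ or R270H/R270H libraries. In addition, that of Akt1 was lost in eBayes without trend and that of Tsc2 with the R270H/R270H numbers exchanged in the block. Of the genes called between R270H/R270H and flox/flox, Plaur and Pik3r3 were the only ones of the lists also called in that fit of 2 genotypes.

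Among the 7 genes of ligand release, 5 were tested, and the one call was Adam10, a protease that cuts Btc and Egf from the membrane, which was higher by 0.79 in R270H/R270H than in flox/flox (adjusted p=0.0347). Over all tested genes 13.6% were called higher in this comparison. The call was lost with the replicate number as a block, with weights for each genotype and in a fit of only these 2 genotypes. Adam10 was read at 71.5 and 71.2 rpkm in +/+, 51.0 and 71.6 in flox/flox and 111 and 99.5 in R270H/R270H, so flox/flox 2 was close to +/+. Adam17, the main protease for Areg, Tgfa and Hbegf, was read at 18.7 and 18.2 rpkm in +/+, 18.2 and 24.3 in flox/flox and 22.8 and 21.2 in R270H/R270H, and was not called in any comparison. Of the 18 feedback inhibitors other than Errfi1, 16 were tested, with 0 calls against +/+ in either mutant genotype. Over all tested genes 12.2% were called in R270H/R270H against +/+ and 11.3% in flox/flox against +/+, in either direction. Of the 16, 5 and 0 had an unadjusted p under 0.05 in R270H/R270H and flox/flox. Against flox/flox, Lrig2 and Spred1 were higher in R270H/R270H by 0.99 and 0.70 and the ubiquitin ligase gene Cblc differed by -0.62 (adjusted p from 0.0277 to 0.0387). These were 2 higher and 1 lower of the 16 tested, where 13.6% of all tested genes were called higher and 11.0% lower. Lrig1, a negative regulator of ErbB receptors in the crypt, was read at 68.5 and 63.4 rpkm in +/+, 40.8 and 75.4 in flox/flox and 48.8 and 53.1 in R270H/R270H and was not called.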

How the data were processed

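Poly(A) RNA of 6 organoid samples was sequenced as stranded libraries on an Illumina HiSeq. The authors aligned the reads to mm10 and derived the deposited rpkm of 36172 genes with StrandNGS, whose version, gene annotation and use of strand are not given in the sources used here. No deposited rpkm is below 1, and 23760 genes stand at 1 in every library. The table has no counts, so depth and counting error are unknown, and n=2 per genotype limits the precision.

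Genotypes and replicate numbers came from the sample labels. Genes that reached 4 rpkm in any library, 10042 in number, were fitted as log2(rpkm+1) with limma 3.58.1 (R 4.3.3, lmFit and eBayes with trend). The 3 genotypes shared 1 spread, tests were two-sided, and p-values were adjusted over these genes (Benjamini-Hochberg, called under 0.05). A difference on this scale understates the change of low genes. The code was tested on simulated data. Genes were placed with GENCODE M21 (GRCm38), and upstream windows came from the RefSeq table. Python 3.11.15, pandas 2.3.3, scipy 1.17.1 and matplotlib 3.10.9 were used.

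Named genes are the members, Trp53, the called genes of the pathway lists, the 3 genes closest to Egfr, Areg and Errfi1 by correlation, and the markers. Neighbours of Areg and a few list genes that were not called in the main fit (Adam17, Dusp6, Etv5, Lrig1 and Phlda1) were added after their values were seen. The members and lists were chosen with earlier results of these data known. A few genes of the lists are counted but not reported by name here. Other pseudocounts, filters, scalings, spreads and subsets of the libraries were tried as alternatives.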

Additional observations from a re-analysis of the deposited data

How the results depend on the processing

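The numbers given in 3s refer to R270H/R270H against +/+, flox/flox against +/+ and R270H/R270H against flox/flox. The main fit called 1227, 1133 and 2469 genes and 2, 1 and 3 members. Pseudocounts of 0.1 or 0, median-of-ratios scaling and eBayes without trend kept the members' counts, and a filter of more than 1 rpkm gave 1907 genes in the first comparison. A fit with no filter was not run. Genes at the floor in every library have no spread to test. Values centred on each chromosome called 2 members in the second comparison (Areg and Btc) and moved Erbb2 there to -0.018. Weights for each genotype gave 5987, 150 and 534 genes and 6, 0 and 1 members, and fits of only the 2 genotypes compared gave 5721, 47 and 378 genes and 6, 0 and 1 members. The R270H/R270H and +/+ pairs had less spread than the flox/flox pair, with a median s.d. of 0.062 and 0.046 against 0.247 on the log2 scale. The cause of these changes was not tested.

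Leaving out 1 library at a time gave 0 to 5732, 8 to 6875 and 166 to 7259 genes and 0 to 6, 0 to 5 and 1 to 7 members. Signs changed for flox/flox against +/+ in Egfr (-1.40 to 0.029), Erbb2 (-0.078 to 0.10) and Erbb3 (-1.06 to 0.38), and for R270H/R270H against flox/flox in Erbb3 (-0.54 to 0.89) and Errfi1 (-0.98 to 0.18). In all, 320 of the members' values under the alternatives kept their direction and their side of the threshold, 30 passed it, 28 lost it and 6 changed sign.

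Same-numbered libraries are of different genotypes, and nothing in the labels ties them to a shared batch or day. In addition, their deviations from the genotype means correlated across genes at 0.117 between +/+ and flox/flox, -0.291 between +/+ and R270H/R270H and -0.196 between flox/flox and R270H/R270H, so the numbers were not taken as pairs. With the replicate number as a block, 550, 280 and 1156 genes and 1, 1 and 1 members (Areg) were called. Under this block the adjusted p-values of Hbegf were 0.0505 and 0.0582 in the first and last comparison and that of Tgfa was 0.0523 in the last. With the R270H/R270H numbers exchanged, an alternative chosen after seeing the data, the block called 941, 873 and 2276 genes and 2, 1 and 3 members.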
